A study of Homo sapiens with 17 samples.

Results

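The genes described here are 58 genes of the long arm of human chromosome 13, 13q, among them RB1 and BRCA2, out of 27315 genes in the deposited table. They were taken by gene symbol from a fixed list, and all 58 were found in the table and passed a filter on low values that 12484 genes passed. The list was chosen by measured values of the same libraries: chromosome 13 genes were lower with the HIF2a guides and differed between the 2 control groups. Values of the members in those comparisons are therefore a description, carry no test and support nothing. Chromosome 13 held 149 other tested genes, which are set beside the members throughout.

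RNA was sequenced from 786-O cells, a line from a human clear cell renal carcinoma that has lost VHL, so all groups share that loss. VHL marks HIF2a protein for destruction, and protein was not measured here. Cells received a lentivirus with Cas9 and 1 guide RNA. The groups were USP37 sg9, USP37 sg3 and a scrambled guide called here the USP37 control, and HIF2a sg6, HIF2a sg4 and a scrambled guide called here the HIF2a control. HIF2a is the transcription factor encoded by EPAS1, and USP37 is a deubiquitinase. Each group had 3 libraries except the USP37 control, which had 2, numbered 2 and 3. Whether infected cells were a pool or a clone, and whether replicates came from separate cultures, is not stated in the labels. The p-values below therefore cover the spread among these libraries, part of which may be technical. DNA copies of the arm were not measured here.

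The short arm of chromosome 13 carries mostly ribosomal RNA repeats, so its protein-coding genes lie on the long arm. RB1 encodes the retinoblastoma protein, a tumour suppressor that holds E2F transcription factors inactive until cyclin-dependent kinases phosphorylate it. BRCA2 is a tumour suppressor that acts in the repair of DNA breaks by homologous recombination. The other members range over transcription, RNA decay, the proteasome, nuclear import, mitochondria and the cytoskeleton, and what they share by choice is their position.

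The authors' deposited values are variance-stabilised and batch-corrected, on a log2-like scale, and every difference below is in those log2 units. Member means over the 17 libraries ran from 6.71 to 13.5 against a table floor of 5.14, and sequencing depth is unknown. The targeted gene EPAS1 fell by 1.97 with the HIF2a guides (limma adjusted p = 2.21e-12), and USP37 fell by 1.00 with its guides (limma adjusted p = 1.22e-05). EPAS1 means were 10.34 with HIF2a sg6 and 9.54 with sg4, against 11.91 in the HIF2a control. Neither gene was lower only with its own guides. EPAS1 had 11.37 with USP37 sg9 and 11.47 with sg3, against 12.14 in the USP37 control. USP37 had 8.49 with HIF2a sg6 and 8.55 with sg4, against 8.96 in the HIF2a control. Kidney markers were present, with PAX8 at 12.2 to 12.99 and VIM at 15.8 to 16.6, while CA9 lay at 5.22 to 6.50, below the filter. All 5 leukocyte markers were below the filter, and of 5 genes listed for the 293T packaging cells, LIN28B and NEFM were below it, while NEFL at 10.5 to 11.9, PRAME at 8.71 to 9.61 and SOX2 at 5.87 to 7.67 were above it. Libraries 2 and 3 of HIF2a sg6 lay farthest from their group mates, with median absolute differences over all tested genes of 0.187 each, against 0.0896 to 0.142 in the other 15 libraries. The HIF2a control library 2 was next at 0.142, and the main results of the HIF2a experiment are also given without these 3 libraries.

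Members were lower with the HIF2a guides than in the HIF2a control, by a median of -0.22 with quartiles of -0.33 and -0.12. Of the 58 members, 49 lay below 0 and 9 above, and the range was -0.72 to 0.62. All 6 guide libraries lay below all 3 control libraries for 20 members, 34.5% of them, beside 12.1% of all tested genes, a share that the choice of members fixes in part. The other 149 chromosome 13 genes had a median of -0.16, and all tested genes a median of -0.0045. Without the 3 libraries that stand apart the members' median was -0.17, with 50 of 58 below 0.

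Taken library by library, the shift was present in each HIF2a guide library. The members' median deviation from their own means was -0.19, -0.29 and -0.33 in the 3 libraries of sg6, -0.18, -0.25 and -0.29 in those of sg4, and 0.03, -0.02 and -0.09 in those of the HIF2a control. In the other experiment it was 0.11, 0.04 and 0.16 with USP37 sg9, 0.28, 0.25 and 0.19 with USP37 sg3, and 0.24 and 0.26 in the USP37 control. Every USP37 library thus lay above every HIF2a library, and within the HIF2a experiment no guide library reached the lowest control library. Over all tested genes the same median lay between -0.01 and 0.0009 in all 17 libraries.

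**Figure D1:**
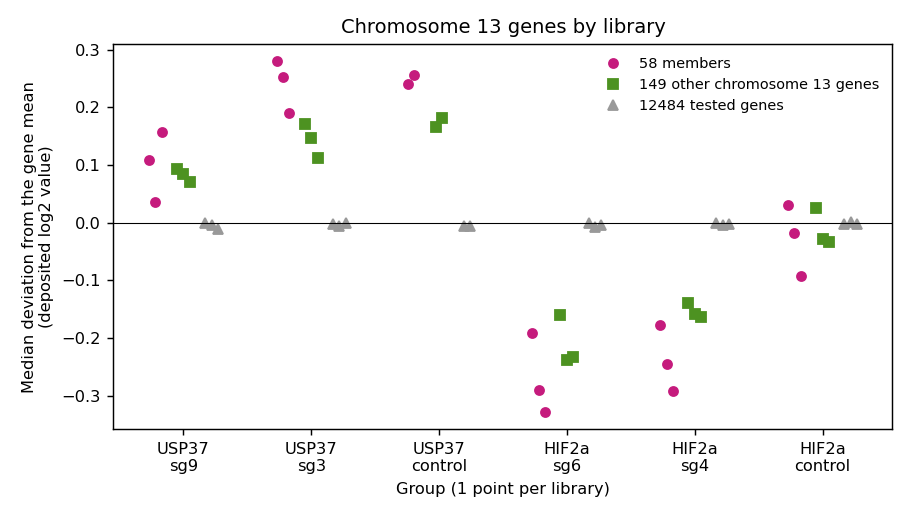
Median deviation of each library from the gene means (vertical axis, deposited log2 value) for the 58 members, 149 other chromosome 13 genes and 12484 tested genes, in 6 groups (horizontal axis, 1 point per library). Members run from -0.33 in a HIF2a sg6 library to 0.28 in a USP37 sg3 library, the other chromosome 13 genes span a narrower range and are likewise below 0 in every HIF2a guide library and above 0 in every USP37 experiment library, and all tested genes stay near 0.

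Among the 6 group means, the lowest was a HIF2a guide for 43 of 58 members, sg6 for 32 and sg4 for 11. USP37 sg9 was lowest for 9 members, USP37 sg3 for 3, the HIF2a control for 3 and the USP37 control for none. The highest group mean was the USP37 control for 23 members, USP37 sg3 for 20 and USP37 sg9 for 12, and each of the 3 HIF2a groups was highest for 1. The choice of members fixes these orders in part. The same counts were not made over all tested genes, so these only describe the members.

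**Figure D2:**
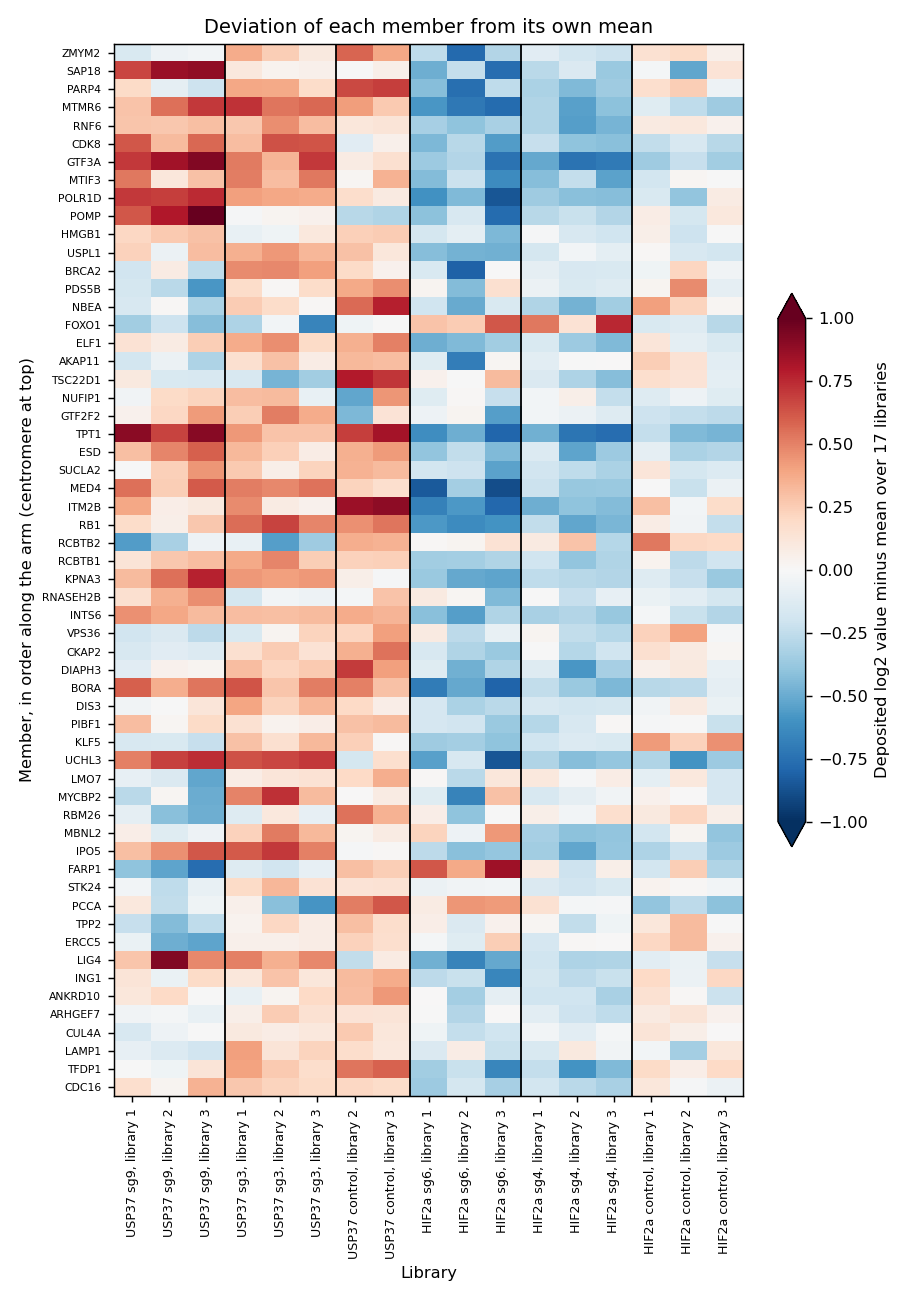
Deviation of each of the 58 members (rows, in order along the arm with the centromere at the top) from its own mean over 17 libraries (columns, by group), in deposited log2 units, with colours limited to 1 in either direction. Blue fills most of the 6 HIF2a guide columns, red most of the 8 USP37 experiment columns, and FOXO1, PCCA and FARP1 stand out as red rows in HIF2a guide columns.

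The 7 members with cell cycle roles were all lower with the HIF2a guides, with a median of -0.31, and CKAP2, a spindle protein, at -0.31 and BORA, an activator of Aurora A and PLK1 in mitosis, at -0.30 lay closest to that median. RB1 had values of 9.81, 9.75 and 9.79 with HIF2a sg6 and 10.14, 9.86 and 9.93 with sg4, against 10.46, 10.35 and 10.15 in the HIF2a control. The highest guide library lay just under the lowest control library, and the difference was -0.44 (SE 0.08). TFDP1, which encodes the dimerisation partner that E2F proteins need to bind DNA, was lower still at -0.57: its 3 libraries had 10.12, 10.24 and 9.82 with sg6 and 10.23, 9.87 and 10.03 with sg4, against 10.66, 10.54 and 10.67 in the HIF2a control. For TFDP1 every guide library lay below every control library.

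Of the 6 DNA repair and chromosome maintenance members, 5 were lower, with a median of -0.25. BRCA2 had 8.42, 7.76 and 8.57 with sg6 and 8.49, 8.41 and 8.42 with sg4, against 8.53, 8.79 and 8.53 in the HIF2a control, a difference of -0.27 (SE 0.13). Its guide and control libraries overlapped through sg6 library 3, and sg6 library 2 lay far below its group mates. Without the 3 libraries that stand apart the difference was -0.10 (SE 0.12). PARP4, the poly(ADP-ribose) polymerase of vault particles, was at -0.55, and PDS5B, a cohesin regulator, at -0.23, or -0.0096 without those 3 libraries.

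ITM2B, a transmembrane protein of the secretory pathway, had the lowest difference of the 58, at -0.72. Its values were 12.71, 12.81 and 12.60 with sg6 and 12.89, 12.98 and 12.95 with sg4, against 13.69, 13.36 and 13.57 in the HIF2a control, so the groups were well apart. The next was KLF5, a zinc finger transcription factor of proliferating epithelium, at -0.63, with 6.35, 6.37 and 6.302 with sg6 and 6.51, 6.57 and 6.55 with sg4, against 7.13, 6.93 and 7.16 in the HIF2a control. KLF5 sits near the floor of the table, where this log2 scale understates differences. NBEA, a vesicle trafficking scaffold, at -0.55 and RNF6, a RING ubiquitin ligase, at -0.48 completed the 6 lowest members with TFDP1 and PARP4.

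The remaining role groups had medians below 0 as well. The 7 transcription factor and chromatin members had a median of -0.24, with SAP18, a subunit of histone deacetylase and exon junction complexes, at -0.24. The 9 members of the RNA polymerase machinery and RNA processing had a median of -0.20, with INTS6, an Integrator subunit, at -0.20 and DIS3, an exosome nuclease, at -0.21. All 9 ubiquitin and proteolysis members were lower, with a median of -0.17, and 6 of 7 nuclear import, vesicle and lysosome members were, with a median of -0.31, where MTMR6, a phosphoinositide phosphatase, stood at -0.31. The 4 mitochondrial and metabolic members, among them SUCLA2, a succinyl-CoA ligase subunit, at -0.22 and ESD, an esterase, at -0.12, had a median of -0.17. The 9 members grouped under cytoskeleton, signalling and other roles also had a median of -0.17, with ANKRD10 at -0.17. SAP18 was at -0.43, DIS3 at -0.12 and ANKRD10 at -0.09 when the 3 libraries that stand apart were left out.

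Of the 58, 9 members went against the shift, and 3 of them stood clear of the rest. FOXO1, a forkhead transcription factor restrained by insulin and AKT signalling, was 0.62 higher (SE 0.13), with 8.23, 8.20 and 8.56 with sg6 and 8.47, 8.09 and 8.70 with sg4, against 7.79, 7.82 and 7.67 in the HIF2a control. PCCA, a subunit of the mitochondrial propionyl-CoA carboxylase, was 0.53 higher, with 8.44, 8.80 and 8.78 with sg6 and 8.51, 8.34 and 8.35 with sg4, against 7.96, 8.09 and 7.95 in the HIF2a control. For both genes every guide library lay above every control library, and they are the only members of which this was true. FARP1, a guanine nucleotide exchange factor of neurons and epithelia, was 0.38 higher, but the control library 2, at 10.61, lay above all 3 sg4 libraries. FOXO1 was 0.59 higher, PCCA 0.46 and FARP1 0.54 when the 3 libraries that stand apart were left out.

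The other 6 exceptions lay closer to 0. They were GTF2F2, a subunit of the general transcription factor TFIIF, at 0.10, MBNL2, a splicing regulator, at 0.09, LMO7, an adherens junction protein, at 0.06, LAMP1, a lysosomal membrane protein, at 0.02, NUFIP1, an assembly factor of small nucleolar ribonucleoproteins, at 0.01, and RNASEH2B, a subunit of ribonuclease H2, at 0.01. Without the 3 libraries that stand apart LAMP1 was at -0.13, on the other side of 0, and GTF2F2, MBNL2, LMO7, NUFIP1 and RNASEH2B were at 0.17, 0.21, 0.17, 0.03 and 0.11. Once the median deviation of all 207 tested chromosome 13 genes was taken out of each library, FOXO1 was 0.80 higher and PCCA 0.72 higher with the HIF2a guides.

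**Figure D3:**
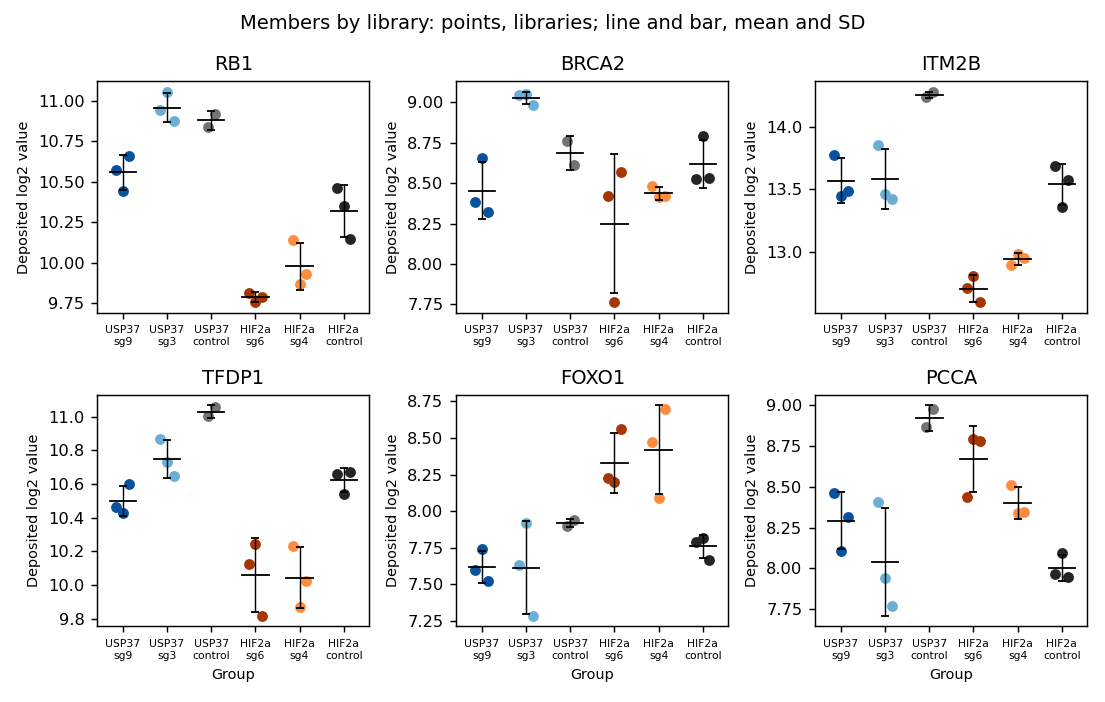
Deposited log2 values (vertical axes, each with its own range) of RB1, BRCA2, ITM2B, TFDP1, FOXO1 and PCCA in 6 groups (horizontal axes), with a point per library and a line and bar for the mean and SD (n = 3, or 2 in the USP37 control). RB1, ITM2B and TFDP1 are lower in both HIF2a guide groups than in the HIF2a control, FOXO1 and PCCA are higher, and BRCA2 overlaps.

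HIF proteins with their partner ARNT bind DNA at short sites with the core letters ACGTG or GCGTG. To show the letters counted here in a promoter rich in them and in those of the 2 clearest exceptions, the 250 bases before the annotated start are printed below from RefSeq, build GRCh38.p14, on the gene's own strand, with every match to ACGTG or GCGTG on either strand in capitals (overlapping matches joined). The stretches are chr13:113584503-113584752 on the plus strand for TFDP1, chr13:40666642-40666891 on the minus strand for FOXO1 and chr13:100088843-100089092 on the plus strand for PCCA.
TFDP1: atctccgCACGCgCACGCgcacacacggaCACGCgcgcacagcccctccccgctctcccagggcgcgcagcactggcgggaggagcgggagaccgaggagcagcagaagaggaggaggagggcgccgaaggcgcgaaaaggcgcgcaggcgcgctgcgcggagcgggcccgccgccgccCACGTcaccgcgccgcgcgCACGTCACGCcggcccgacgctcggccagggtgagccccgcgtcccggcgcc
FOXO1: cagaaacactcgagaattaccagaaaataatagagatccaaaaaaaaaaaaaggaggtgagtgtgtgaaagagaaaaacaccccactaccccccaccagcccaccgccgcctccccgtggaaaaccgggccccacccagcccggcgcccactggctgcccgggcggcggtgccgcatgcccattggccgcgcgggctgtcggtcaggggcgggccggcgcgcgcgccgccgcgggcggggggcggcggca
PCCA: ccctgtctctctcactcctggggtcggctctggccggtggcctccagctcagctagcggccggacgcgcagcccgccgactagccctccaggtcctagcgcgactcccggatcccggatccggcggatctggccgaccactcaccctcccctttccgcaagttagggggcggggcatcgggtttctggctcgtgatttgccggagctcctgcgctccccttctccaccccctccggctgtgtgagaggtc

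The TFDP1 stretch held 6 matches, and the FOXO1 and PCCA stretches held none. TFDP1 was picked for its matches and does not stand for the low members: KLF5, NBEA and RNF6, also among the 6 lowest, held none, and the table has no promoter for ITM2B and PARP4. FOXO1 and PCCA do not stand for all exceptions either. Among these, LAMP1 held 12 matches, more than TFDP1, and FARP1 and GTF2F2 held 2 each. MBNL2, LMO7, NUFIP1 and RNASEH2B held none. Promoters were found for 54 of 58 members, and not for SAP18, PARP4, USPL1 and ITM2B. At least 1 match was present in 34 of the 54, or 63.0%, beside 66.7% of 132 other chromosome 13 genes and 58.1% of 10063 tested genes with a promoter. The 34 members with a match had a median difference of -0.22 with the HIF2a guides, and the 20 without had -0.19. A match is a description of letters and not evidence of binding. Only 1 annotated start per gene was used, which need not be the start used in these cells. The KLF5 and RB1 stretches were 40.8% and 36.8% G or C, beside a median of 66.2% over members.

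Members stood higher in the control of the USP37 experiment, set against the HIF2a control, by a median of 0.29 with quartiles of 0.13 and 0.41. Of the 58, 56 were above 0. Both USP37 control libraries lay above all 3 HIF2a control libraries for 39 members, 67.2% of them, beside 32% of all tested genes, again a share that the choice of members fixes in part. The 149 other chromosome 13 genes had a median of 0.20. The scrambled guide and the experiment it belonged to cannot be told apart here, and the HIF2a control also enters the comparison with the HIF2a guides.

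The highest of these differences was TPT1, which encodes an abundant growth-associated protein, at 1.14, with 14.21 and 14.36 in the USP37 control, against 13.29, 13.09 and 13.06 in the HIF2a control. TPT1 has many processed pseudogenes, so reads of its copies may be shared. PCCA followed at 0.92, with 8.87 and 8.98 in the USP37 control, against 7.96, 8.09 and 7.95 in the HIF2a control. PCCA was thus among the members that lay with the shift between controls and against it with the HIF2a guides. ITM2B at 0.72, TSC22D1, a TGF-beta-responsive leucine zipper protein, at 0.68, ESD at 0.63 and BORA at 0.61 came next.

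RB1 stood 0.56 above its HIF2a control level in the other control, where it had 10.84 and 10.92. BRCA2 differed by 0.07, and its libraries overlapped, with 8.76 and 8.61 in the USP37 control. The 2 members below 0 were POMP, a chaperone of proteasome assembly, at -0.29 and KLF5 at -0.24. ERCC5, a nucleotide excision repair nuclease, at 0.01, and RCBTB2, RNF6 and ARHGEF7, an exchange factor for Rac and Cdc42, at 0.04 each, were the other low members.

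The shift was spread along the arm. The 207 tested genes of the chromosome were split in order into 5 runs of 41 or 42 genes, and the median difference with the HIF2a guides was -0.29 in the run from ZMYM2 to HMGB1, -0.16 in that from USPL1 to NUFIP1, -0.20 from GTF2F2 to CKAP2, -0.11 from DIAPH3 to STK24 and -0.17 from PCCA to CDC16. In the same runs the difference between controls was 0.20, 0.26, 0.28, 0.28 and 0.18. No run had a median of the opposite sign, and the run nearest the centromere was the lowest with the HIF2a guides.

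**Figure D4:**
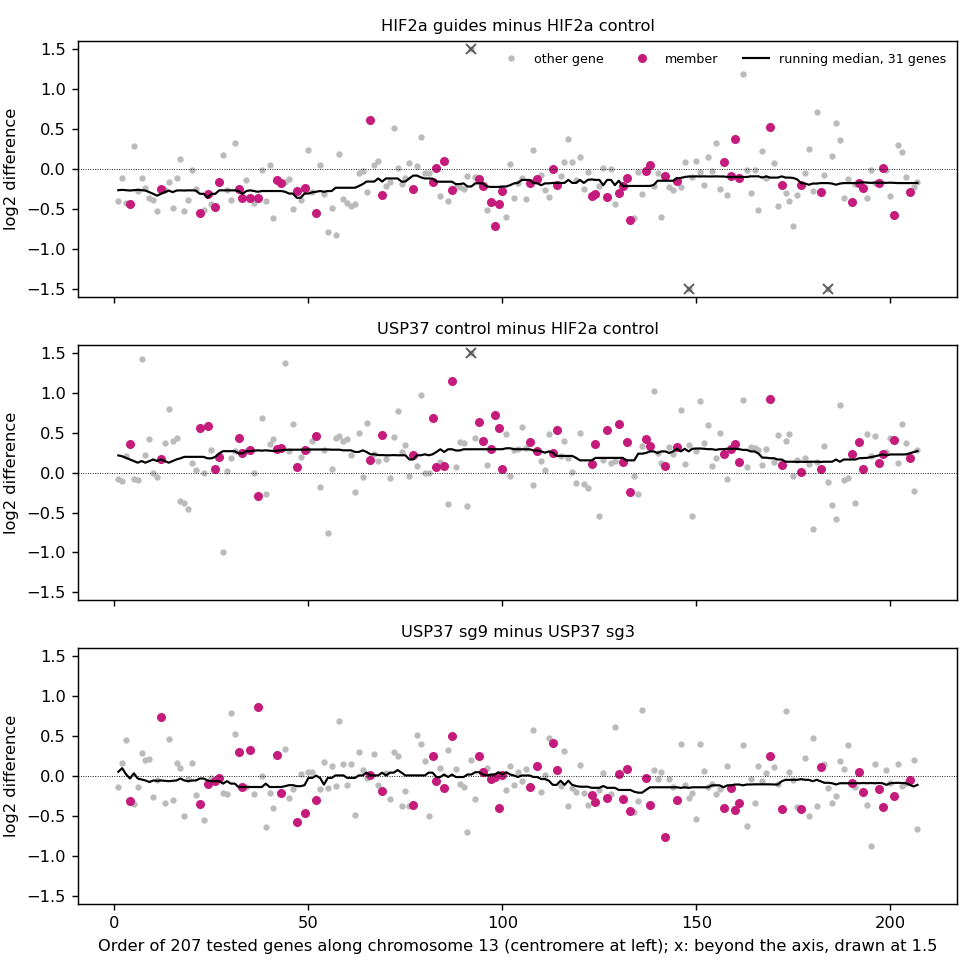
Difference in deposited log2 value (vertical axes) for 207 tested chromosome 13 genes in order along the arm (horizontal axis, gene order), with the 58 members coloured and a running median of 31 genes, for HIF2a guides minus their control, for one control minus the other (USP37 experiment minus HIF2a experiment), and for USP37 sg9 minus sg3. The running median stays below 0 in the top panel and above 0 in the middle panel along the whole arm, and crosses 0 in the bottom panel.

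Among the 22 autosomes, chromosome 13 had the second lowest median with the HIF2a guides at -0.19, after chromosome 3 at -0.22 over 692 genes, while chromosome 14 had 0.12 over 405 genes. Between controls chromosome 13 had the highest median at 0.24, next to chromosome 14 at 0.23, and chromosome 3 had -0.04. Chromosome 13 thus shared the low position of chromosome 3 in the first comparison and the high position of chromosome 14 in the second.

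The guides of each pair were compared with each other, which involves no control and was not part of how the members were chosen. HIF2a sg6 and sg4 differed at 4 of 58 members, 6.90%, beside 9.22% of all tested genes, and 3 of the 4 were higher with sg6 (limma, Benjamini-Hochberg adjusted p under 0.05). FARP1 had 10.98, 10.74 and 11.21 with sg6, against 10.45, 10.15 and 10.42 with sg4, a difference of 0.64 (SE 0.13, limma adjusted p = 0.00436). MBNL2 had 9.56, 9.29 and 9.77 with sg6, against 9.002, 8.92 and 8.94 with sg4, a difference of 0.58 (SE 0.12, limma adjusted p = 0.00376). In both genes no sg6 library overlapped an sg4 library, so these 2 of the 9 exceptions rested mainly on sg6. Without the 3 libraries that stand apart, which leaves 1 library of sg6, FARP1 differed by 0.64 (limma adjusted p = 0.006) and MBNL2 by 0.60 (limma adjusted p = 0.0115).

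TSC22D1 was 0.41 higher with sg6 (limma adjusted p = 0.0241), a call lost without sg4 library 2 (adjusted p = 0.0915) or 3 (0.127), without sg6 library 3 (0.109) and without the 3 libraries that stand apart (0.238). USPL1, a SUMO isopeptidase, fell by 0.35 with sg6 (limma adjusted p = 0.0447), and this call was lost without any 1 of the 6 libraries (adjusted p = 0.0617 to 0.179) and without the 3 that stand apart (0.372). RB1 differed by -0.19 (SE 0.10, limma adjusted p = 0.227) and BRCA2 by -0.19 (SE 0.15, limma adjusted p = 0.477). A p above the threshold does not show that the guides act alike.

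USP37 sg9 and sg3 differed at 24 of 58 members, 41.4%, beside 30.8% of all tested genes (limma, Benjamini-Hochberg adjusted p under 0.05). With sg9, 17 members fell, 29.3% of them beside 14.2% of all tested genes, and 7 rose, 12.1% beside 16.6%. The members' median was -0.14, and the median of the other chromosome 13 genes was -0.05, of which 26 fell and 16 rose. The count of 24 dropped to 13 without sg9 library 3, to 14 without sg3 library 1 and to 15 without sg9 library 2. Once the median of chromosome 13 was taken out of each library, 17 members differed, 9 higher and 8 lower.

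RB1 was among the members that fell, with 10.57, 10.44 and 10.66 with USP37 sg9, against 10.94, 11.06 and 10.88 with sg3. The groups did not overlap, and the difference was -0.40 (SE 0.10, limma adjusted p = 0.00403). BRCA2 had 8.38, 8.66 and 8.32 with sg9, against 9.05, 9.05 and 8.98 with sg3, and fell by 0.57 (SE 0.15, limma adjusted p = 0.00712). The largest fall was MYCBP2, a giant ubiquitin ligase, with 8.87, 9.16 and 8.65 with sg9, against 9.64, 9.87 and 9.46 with sg3 (-0.77, SE 0.17, limma adjusted p = 0.00227). KLF5 had 6.54, 6.55 and 6.48 with sg9, against 6.996, 6.87 and 7.03 with sg3 (-0.44, limma adjusted p = 0.00714). All 3 sg9 libraries lay below all 3 sg3 libraries for each of these 4 genes.

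PDS5B fell by 0.47 (limma adjusted p = 0.0196), a call lost without sg3 library 1 (adjusted p = 0.0636) or 3 (0.0569) or sg9 library 3 (0.113), or with the chromosome 13 median taken out (0.0541). FARP1 fell by 0.43 (limma adjusted p = 0.0188), lost without sg3 library 1 (0.0501) or 3 (0.0557) or sg9 library 3 (0.105), or with the chromosome 13 median taken out (0.0601). Of the 6 DNA repair members, 4 fell with sg9 and 1 rose, with a median of -0.39. Of the 9 cytoskeleton, signalling and other members, 4 fell and 1 rose, with a median of -0.27. Over all tested genes 14.2% fell and 16.6% rose. With the transcript length trend taken out, as described below, PARP4, BRCA2 and PDS5B lost their call (limma adjusted p = 0.092, 0.0514 and 0.0895). In that setting AKAP11, LMO7, FARP1 and STK24 lost theirs too (limma adjusted p = 0.496, 0.321, 0.435 and 0.572).

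The largest rise was POMP, with 10.81, 10.99 and 11.40 with sg9, against 10.17, 10.21 and 10.23 with sg3 (0.86, SE 0.14, limma adjusted p = 0.000151). SAP18 had 10.71, 10.91 and 10.93 with sg9, against 10.15, 10.08 and 10.09 with sg3 (0.74, limma adjusted p = 0.000545). TPT1 had 14.43, 14.20 and 14.43 with sg9, against 13.96, 13.81 and 13.81 with sg3 (0.49, limma adjusted p = 0.00139). In all 3 genes every sg9 library was above every sg3 library. RNASEH2B rose by 0.41 (limma adjusted p = 0.0226), lost without sg3 library 1 (0.0792), sg9 library 2 (0.0596) or sg9 library 3 (0.102). POLR1D, a subunit shared by RNA polymerases I and III, rose by 0.32 (limma adjusted p = 0.0329), a call lost without any 1 of the 6 libraries (0.0622 to 0.0891).

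Transcript length moved with the difference between the USP37 guides. Across the 58 members, Spearman's rho between the longest annotated transcript and the sg9 minus sg3 difference was -0.47, and across 12059 tested genes with a length it was -0.54. These values are descriptions across genes that share the same 6 libraries. The 20 shortest members had a median of -0.0024, the middle 19 of -0.21 and the 19 longest of -0.31, with 1, 6 and 10 falls. With the HIF2a guides the same length groups had -0.23, -0.26 and -0.21, and rho was 0.05 over members. With the mean of both USP37 guides against their control the length groups had 0.046, -0.12 and -0.18. There rho was -0.39 over members and -0.23 over all tested genes with a length. When the length trend was taken out of each library, a step chosen after seeing the data, 19 members differed between sg9 and sg3, 8 higher and 11 lower, of which 14 were among the 24. RB1 remained called at -0.30 (limma adjusted p = 0.0176), while BRCA2 came to -0.27 (0.0514), PDS5B to -0.26 (0.0895) and FARP1 to -0.11 (0.435). MYCBP2 came to -0.43 and POMP to 0.56, and both remained called (limma adjusted p = 0.00414 and 0.000326). The part of length in the differences of single members was not tested.

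**Figure D5:**
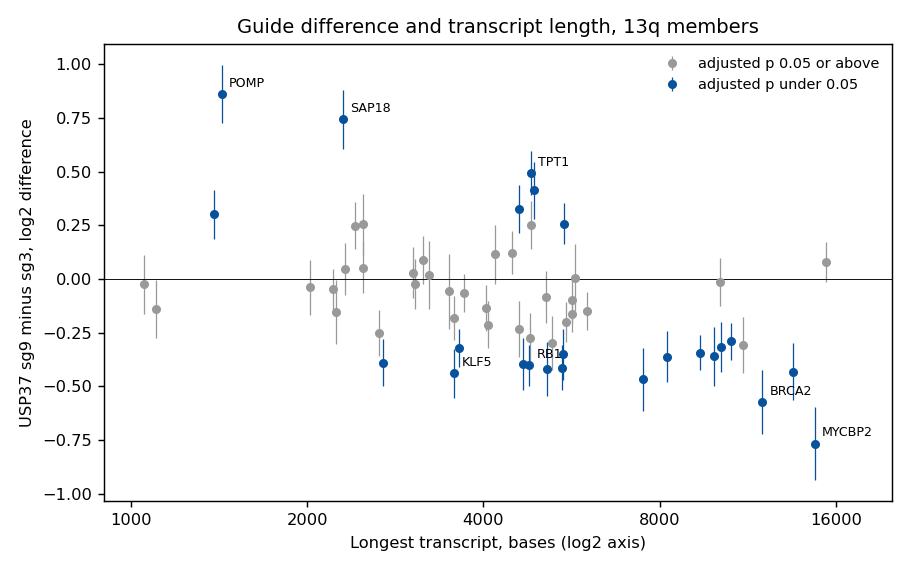
Longest annotated transcript of each of the 58 members (horizontal axis, bases, log2 scale) against the sg9 minus sg3 difference in deposited log2 value (vertical axis), with bars for 1 SE and blue points for members with a limma adjusted p under 0.05. Falls gather at the long end with MYCBP2 and BRCA2, and POMP and SAP18 are the highest points.

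With the mean of both USP37 guides, 27 of 58 members differed from the USP37 control, 46.6% beside 44.3% of all tested genes, which is close to the background. Of these 17 fell, 29.3% beside 21.9%, and 10 rose, 17.2% beside 22.4% (limma, Benjamini-Hochberg adjusted p under 0.05). The members' median was -0.09, and that of the other chromosome 13 genes -0.05. The 2 control libraries here also enter the difference between controls by which the members were chosen, so a fall in this comparison is not independent of that choice. Members thus moved in both directions, over a range of -0.95 to 0.74. Longer transcripts went with lower differences here too, with a Spearman's rho of -0.39 over members.

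The largest fall was TSC22D1, with 10.26, 10.01 and 10.01 with USP37 sg9 and 10.00, 9.70 and 9.82 with sg3, against 10.96 and 10.88 in the USP37 control (-0.95, SE 0.11, limma adjusted p = 1.39e-06). PCCA had 8.46, 8.11 and 8.31 with sg9 and 8.41, 7.94 and 7.77 with sg3, against 8.87 and 8.98 in the USP37 control (-0.76, limma adjusted p = 0.00023). ITM2B had 13.77, 13.45 and 13.48 with sg9 and 13.86, 13.46 and 13.42 with sg3, against 14.24 and 14.27 in the USP37 control (-0.68, limma adjusted p = 6.93e-05). For these 3 genes all 6 guide libraries lay below both control libraries. NBEA fell by 0.68 (limma adjusted p = 0.000297) and RCBTB2, an RCC1-domain protein, by 0.67 (limma adjusted p = 0.00172). With the HIF2a guides PCCA was higher and ITM2B lower, and both fell here.

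The 5 largest rises were POMP, UCHL3, LIG4, GTF3A and CDK8. POMP rose by 0.74 (SE 0.14, limma adjusted p = 0.000205). UCHL3, a ubiquitin C-terminal hydrolase, had 9.04, 9.21 and 9.27 with USP37 sg9 and 9.16, 9.20 and 9.23 with sg3, against 8.36 and 8.69 in the USP37 control (0.66, limma adjusted p = 0.00069). GTF3A, the factor TFIIIA of 5S ribosomal RNA transcription, rose by 0.55 (limma adjusted p = 0.000618), and CDK8, the Mediator kinase, rose by 0.55 (limma adjusted p = 0.00087). LIG4, the ligase of non-homologous end joining, rose by 0.59 (limma adjusted p = 0.00155), but without library 2 of the control the adjusted p was 0.0729. Every guide library lay above both control libraries for UCHL3, GTF3A, CDK8 and LIG4.

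RB1 did not pass this test, with a difference of -0.12 (SE 0.10, limma adjusted p = 0.317), and neither did BRCA2 at 0.05 (SE 0.15, limma adjusted p = 0.796). For RB1 the mean joins unlike guides, since sg9 alone was at -0.32 against the control (limma adjusted p = 0.018) and sg3 alone at 0.08 (limma adjusted p = 0.605). For BRCA2 the guide means lay on opposite sides of the control mean, at 8.45 with sg9 and 9.03 with sg3 against 8.69. The sg9 and control libraries of BRCA2 overlapped. Of the role groups, the 9 cytoskeleton, signalling and other members were all below 0, with 3 falls and a median of -0.29. The 9 RNA polymerase and RNA processing members had 3 rises, 1 fall and a median of 0.19. Over all tested genes 21.9% fell and 22.4% rose. Several of these calls were lost when 1 of the 2 control libraries was left out. That leaves 1 control library, so a call can be lost even where the difference moves little, as for POLR1D. Without control library 2, DIAPH3 was at -0.29 and GTF2F2 at 0.16, against -0.43 and 0.45 with both. Without control library 3, LMO7 was at -0.27 and POLR1D at 0.38, against -0.35 and 0.42.

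Genes that work with RB1 and BRCA2 but lie on other chromosomes were set beside them. Of 20 tested RB1 partners and E2F genes, 10 fell and 1 rose with the HIF2a guides, beside 14.5% and 16.1% of all tested genes that fell and rose, with a median of -0.28. Without the 3 libraries that stand apart 8 fell and none rose, beside 11.5% and 13.2% of all tested genes. CCND1, the D-type cyclin that drives phosphorylation of RB1, fell by 1.64, E2F7, an atypical E2F repressor, fell by 0.89 and E2F1, an activator, fell by 0.47 (limma adjusted p = 2.18e-12, 9.21e-08 and 0.000993), while CCND3 rose by 0.28 (limma adjusted p = 0.0342, or 0.0608 without those 3 libraries). With the USP37 guides 6 of the 20 fell, 30% beside 21.9% of all tested genes, and 4 rose, 20% beside 22.4%, shares near the background. Among them were CCND1 at -0.79 (limma adjusted p = 2.72e-06), RBL2, a relative of RB1, at -0.75 (limma adjusted p = 5.64e-05) and CCNE1 at 0.67 (limma adjusted p = 0.000349).

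Of 19 tested homologous recombination genes off the arm, 4 fell, 21.1% beside 14.5% of all tested genes, and none rose, beside 16.1%, with the HIF2a guides. Their median was -0.14, and without the 3 libraries that stand apart it was -0.02, with 2 falls. RAD54B, a DNA translocase, fell by 0.60 (limma adjusted p = 6.07e-05) and BRIP1, a helicase that binds BRCA1, by 0.49 (limma adjusted p = 0.000577). With the USP37 guides 5 fell, 26.3% beside 21.9%, and 1 rose, 5.26% beside 22.4%, with BRIP1 at -0.67 (limma adjusted p = 8.23e-05), BRCA1 at -0.44 (limma adjusted p = 0.00163) and XRCC3 at 0.47 (limma adjusted p = 0.00366). With sg9 against sg3, BRCA1 fell by 0.43 and RAD50 by 0.37 (limma adjusted p = 0.00364 and 0.0157), while XRCC3 rose by 0.47 (limma adjusted p = 0.00627). No other gene of this list was called there, beside 14.2% of all tested genes that fell and 16.6% that rose. These list values have the length trend left in, and the part of length in them was not tested. BRCA2 fell in the same comparison, a call lost with the length trend taken out (limma adjusted p = 0.0514).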

How the data were processed

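RNA-seq of 17 libraries was used. Per the labels' protocols, polyadenylated RNA was made into libraries with a TruSeq v2 kit, which does not mark strand, read in pairs of 150 bases. STAR 2.5.2b, Salmon, cutadapt, DESeq2 and build hg19 are named in the submitters' processing notes, with no role or order. The authors deposited variance-stabilised, batch-corrected log2 values. What batch was corrected, and how, is not stated. For every gene the means over libraries of each replicate number were equal to within 6.395e-14, so 11 residual degrees of freedom are too many and p-values tend to be too small. Counts cannot be recovered, so depth is unknown.

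Genes were tested where their mean was at least 1 above the 1st percentile of gene means, a level of 6.14. Of 27315 genes, 8023 held 1 value throughout. limma 3.58.1 in R 4.3.3 fitted 6 group means with a mean-variance trend, and adjusted p-values are Benjamini-Hochberg over 12484 genes, with calls under 0.05. The fit was tested on simulated data. The members and lists were chosen with earlier results of these data known. Named genes are RB1 and BRCA2, the 6 lowest and 6 highest members in each described comparison, all exceptions, the 5 largest rises and falls in each tested one, and members nearest each role median. Gene order and promoters came from RefSeq and lengths from GENCODE 29, both GRCh38. The deposited values were made on hg19, so GRCh38 coordinates are given for the printed promoters only. Among members, 12 have a gene span, introns included, that overlaps the span of another tested gene. Reads from a shared stretch may not be told apart without strand, and how many reads this touches is unknown. Alternatives were other filters, a replicate block, each experiment alone, no trend, array weights, recentring, chromosome 13 taken out, each library left out, the 3 libraries that stand apart left out and transcript length taken out.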

Additional observations from a re-analysis of the deposited data

Results flagged for a closer look

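Each value here is a log2 difference between 2 guides to the same target whose limma adjusted p was under 0.05. They were noted because the guides of a pair differed. Between HIF2a sg6 and sg4, FARP1 differed by 0.64, MBNL2 by 0.58, TSC22D1 by 0.41 and USPL1 by -0.35. Between USP37 sg9 and sg3, the members higher with sg9 were POMP at 0.86, SAP18 at 0.74, TPT1 at 0.49, RNASEH2B at 0.41, POLR1D at 0.32, GTF3A at 0.30 and HMGB1, a DNA-bending chromatin protein, at 0.26. The members lower with sg9 were led by MYCBP2 at -0.77, BRCA2 at -0.57, PDS5B at -0.47, KLF5 at -0.44 and FARP1 at -0.43. ERCC5 at -0.42, TPP2, a large cytosolic peptidase, at -0.41, RB1 at -0.40, MBNL2 at -0.40 and LAMP1 at -0.39 followed. LMO7 at -0.36, AKAP11, an anchor of protein kinase A, at -0.36, PARP4 at -0.35, STK24, a Ste20-like kinase, at -0.34, CKAP2 at -0.32, ZMYM2, a zinc finger protein, at -0.32 and DIS3 at -0.29 were the smaller ones.

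FARP1 and MBNL2 differed in both pairs, higher with sg6 and lower with sg9. Of the 24 members that differed between sg9 and sg3, 8 kept their call in every setting run: RB1, SAP18, POMP, TPT1, CKAP2, KLF5, MYCBP2 and TPP2. GTF3A had a difference of -0.0084 once the length trend was taken out. With a replicate block, 5 of the 24 lost their call: POLR1D (limma adjusted p = 0.0559), ZMYM2 (0.0653), HMGB1 (0.0675), AKAP11 (0.0714) and GTF3A (0.0758). No formal outlier test of a member's single libraries was run, since groups held 2 or 3.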

How the results depend on the processing

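Over all called members of the tested comparisons, with RB1 and BRCA2, 74 results lost their call and 338 stayed on their side of the threshold with a library left out, against 44 and 544 under the other settings. No called one turned direction, except GTF3A between sg9 and sg3 with the length trend taken out (-0.0084). With a library left out, the members that differed between HIF2a sg6 and sg4 numbered 2 to 5 against 4, those between USP37 sg9 and sg3 numbered 13 to 21 against 24, and those with the USP37 guides 20 to 28 against 27. Array weights, whose estimation stopped before converging, gave 2 for sg6 against sg4. Other settings gave 3 to 6, 17 to 28 and 27 to 31. The members' median with the HIF2a guides was -0.25 to -0.18 with a library left out, and -0.036 once the chromosome 13 median was taken out of each library, which removes the shared shift by construction. The difference between controls was 0.27 to 0.31, and 0.071 with the chromosome taken out. Fitting each experiment alone gives no difference between controls. A left-out USP37 control library leaves 1, assumed to vary like the other groups.

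With a replicate block the counts were 3, 19 and 27, and the medians -0.22 and 0.30. Residuals of same-numbered libraries correlated at -0.55 to 0.22, over 0.1 in 6 of 40 pairs, but the replicate term had been taken out of the deposited values, so this cannot show whether the numbers pair the samples, and the labels do not say it. Unknown depth limits what can be said of low genes such as KLF5.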

Other observations

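The guide pairs share no library, so their differences can be set side by side over the 58 members. Pearson's r between sg6 minus sg4 and sg9 minus sg3 was -0.10 and Spearman's rho -0.09 across members, with the same sign in 32 of 58, and r was -0.07 across all tested genes, values that describe genes and not replicates.

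Other members passed the test with the USP37 guides. KPNA3 and IPO5, importins that carry proteins into the nucleus, rose by 0.46 and 0.53 (limma adjusted p = 0.000856 and 8.89e-05), beside POMP and UCHL3. RBM26, an RNA-binding protein, fell by 0.63 (limma adjusted p = 0.000411). These 3 were picked after their values were seen, from among others that passed.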
